A study of Mus musculus with 6 samples.

Results

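The 9 genes described here encode the core of transforming growth factor beta (TGF-beta) signalling in the forming heart valves of the mouse: the ligands Tgfb1, Tgfb2 and Tgfb3, the receptors Tgfbr1 and Tgfbr2, the co-receptors Tgfbr3 and Eng, and the inhibitory Smads Smad6 and Smad7. They were found by symbol among the 32285 genes of the deposited count matrix, and each matched 1 row. Their levels were read across marker-gated cell classes of the E10.5 cardiogenic region, with the endocardium, the endocardial cushions and the myocardium as the classes of main interest.

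The study profiled single cells from microdissected cardiogenic tissue of wild type C57BL/6 embryos at E10.5, a stage at which the cushions are being filled with mesenchyme. The labels describe 6 samples, 3 from normal glycemic females pretreated with vehicle (Veh) and 3 from hyperglycemic females pretreated with streptozotocin (STZ), a toxin of insulin-producing cells. All females were mated to normal glycemic males, and no group carries an engineered allele. RNA was read as unique molecular identifiers (UMIs), each marking 1 captured molecule, from droplet 3′ libraries.

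Barcode suffixes separate 6 libraries, and no file used here ties a suffix to a sample or a treatment. STZ and Veh were therefore not compared, the matrix was treated as 1 sample, and no p-value is given. Libraries are numbered by suffix and serve only to show the spread. Of 53362 barcodes, 35962 (67.4%) had at least 2500 detected genes and at most 10% mitochondrial UMIs and were retained, with 4903 to 7136 cells and 195763232 to 245913073 UMIs per library. Of the retained barcodes, 2890 have a sequence that also occurs in another library, and 141 sequences were retained in more than 1 library.

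In cushion formation, signals from the underlying myocardium induce endocardial cells of the atrioventricular canal and outflow tract to lose endothelial character, invade the matrix between the layers and become mesenchyme. TGF-beta ligands are secreted in a latent form, are released by integrins, thrombospondin and proteases, and bind TGFBR2, which recruits and activates TGFBR1. The receptor pair phosphorylates SMAD2 and SMAD3, which enter the nucleus with SMAD4. Betaglycan, the product of Tgfbr3, presents ligand to TGFBR2, and endoglin, the product of Eng, is an endothelial co-receptor for TGF-beta and bone morphogenetic proteins (BMPs). SMAD6 restrains mainly BMP signalling and SMAD7 restrains both branches.

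Cells were gated on markers that hold none of the 9 genes. The endocardium-like class (841 cells) had a median of 7 of 8 shared endothelial markers and 6 of 8 endocardial markers on, where on means a level of at least 20% of a percentile near the top of that gene's range over cells. The cushion mesenchyme-like class (478 cells) had a median of 8 of 10 cushion markers and 1 of 8 endothelial markers on, and a median of 5 of 8 endocardial markers, 3 of which (Gata4, Hapln1 and Tbx20) stand in both lists. A further 133 cells met the cushion marker count with 3 to 4 endothelial markers on and are called endothelial and cushion double-marked. The gates set part of these medians. Endocardium-like and vascular endothelium-like cells needed at least 5 of the 8 endothelial markers on. Every other class except the double-marked cells was allowed at most 2 of them. The myocardium-like class held 2836 cells, the vascular endothelium-like class 597, the epicardium-like class 1163 and the smooth muscle-like class 225. No gate took 16704 retained cells, and 506 that passed 2 gates were left out. All levels are UMIs of a gene per 1000000 UMIs of the class (CPM), and they are compared between classes, not between genes.

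The cushion mesenchyme-like class still carried some endothelial transcript. The 8 endothelial markers summed to 516 CPM there (494 to 564 across libraries), against 2577 CPM in endocardium-like cells (2455 to 2705) and 43.3 CPM in myocardium-like cells (38.8 to 49.4), and none of the 8 was at 0 in any of these classes. Pecam1 stood at 64.4 CPM in cushion mesenchyme-like cells and Cdh5 at 10.7 CPM. The 10 myocardial markers summed to 651 CPM in cushion mesenchyme-like cells and 34220 CPM in myocardium-like cells. The 7 smooth muscle and mural markers summed to 758 CPM in cushion mesenchyme-like cells (483 to 1039) with 6 of 7 at 10 CPM or more, and to 72.9 CPM in endocardium-like cells (46.7 to 119.6) with 4 of 7, none of them at 0. In smooth muscle-like cells, a class also high in Tgfb2, Smad6 and Smad7, they summed to 9393 CPM. The list is not particular to that class: the same 7 markers summed to 7037 CPM in myocardium-like and 12323 CPM in outflow-like cells. Smooth muscle-like cells in turn held 2511 CPM of the 10 myocardial markers, 9 of them at 10 CPM or more. The part of these transcripts in the results below was not tested.

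Promoter sequences of 6 of the 9 genes were read from RefSeq (GRCm38.p6). Levels of the endothelial receptors Eng and Tgfbr2 correlated over the 16 ranked classes (Pearson's r 0.82), and the ligand Tgfb2 followed another pattern. Within the endothelium the 2 receptors parted: endocardium-like cells had more Eng and less Tgfbr2 than vascular endothelium-like cells. The 3 promoters shown are those of Eng, Tgfbr2 and Tgfb2. Each is the 250 bases before the annotated start, on the gene's strand. Capitals mark the core recognised by ETS transcription factors (GGAAG, either strand) in Eng and Tgfbr2, and the Smad box (CAGAC, either strand) in Tgfb2.
Eng, chr2:32646345-32646594, plus strand: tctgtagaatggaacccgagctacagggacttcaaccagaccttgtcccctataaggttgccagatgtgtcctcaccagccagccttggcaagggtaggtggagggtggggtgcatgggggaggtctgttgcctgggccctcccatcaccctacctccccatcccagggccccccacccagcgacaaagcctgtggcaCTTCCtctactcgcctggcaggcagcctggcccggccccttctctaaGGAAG
Tgfbr2, chr9:116175364-116175613, minus strand: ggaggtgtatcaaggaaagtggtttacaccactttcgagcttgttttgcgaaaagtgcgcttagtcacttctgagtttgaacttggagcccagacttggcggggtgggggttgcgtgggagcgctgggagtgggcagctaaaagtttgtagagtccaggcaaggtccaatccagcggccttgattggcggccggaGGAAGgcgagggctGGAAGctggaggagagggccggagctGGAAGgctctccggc
Tgfb2, chr1:186705990-186706239, minus strand: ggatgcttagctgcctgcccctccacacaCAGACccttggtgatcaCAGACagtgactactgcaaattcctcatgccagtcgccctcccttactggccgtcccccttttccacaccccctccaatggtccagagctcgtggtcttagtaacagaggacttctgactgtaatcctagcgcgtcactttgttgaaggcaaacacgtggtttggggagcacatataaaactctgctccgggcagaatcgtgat
The ETS core occurs 2 times in the Eng window and 3 times in that of Tgfbr2. The Tgfb2 window holds it 0 times and the Smad box 2 times, as many Smad boxes as the Eng window holds. Of the windows not shown, that of Tgfb1 holds the ETS core 1 time, those of Tgfbr1 0 and 3 times, and that of Smad6 0 times. The count thus does not separate the endothelial genes from Tgfbr1, which was read in nearly every class. No link between matches and levels was tested. Such matches are common: 64.1% of 32851 promoter windows of this length hold the ETS core and 42.2% the Smad box.

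The ligands had different patterns across the classes. Tgfb1 was highest in endothelial, myeloid-like and megakaryocyte-like cells, Tgfb2 in smooth muscle-like, epicardium-like and cushion mesenchyme-like cells and in parts of the myocardium, and Tgfb3 was scarce in every class. Tgfb1 (chromosome 7, 25687002 to 25705077, GRCm38) was read in endocardium-like cells at 117 CPM (lowest library 110, median 116, highest 125). Vascular endothelium-like cells had 165 CPM (156, 165 and 191). Cushion mesenchyme-like cells had 47.2 CPM (39.4, 47.1 and 51.5), and myocardium-like cells 4.13 CPM (3.19, 3.94 and 5.12). The 4 classes did not overlap between libraries. Tgfb1 was thus 2.48-fold lower in cushion mesenchyme-like than in endocardium-like cells (95% counting interval 2.30 to 2.67, lower in 6 of 6 libraries). Outside the vessel wall, 82 myeloid-like cells had 141 CPM and 40 megakaryocyte-like cells 503 CPM, although 74.4% and 72.5% of those cells had high doublet scores. Outflow-like myocardium was the myocardial region with the highest Tgfb1, at 22.4 CPM (18.7, 20.4 and 33.1).

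Tgfb2 (chromosome 1, 186622792 to 186705989, GRCm38), the ligand most tied by mouse genetics to cushion defects, was highest among the 16 ranked classes in smooth muscle-like cells, at 314 CPM (265, 317 and 374 over the 5 libraries with at least 20 such cells). Epicardium-like cells had 185 CPM (172, 187 and 207) and cushion mesenchyme-like cells 176 CPM (143, 176 and 225), which overlapped between libraries. Myocardium-like cells followed at 98.3 CPM (91.8, 95.9 and 119), endocardium-like cells at 62.8 CPM (47.9, 60.8 and 70.3) and vascular endothelium-like cells at 34.8 CPM (30.3, 35.7 and 41.1). Every library had more Tgfb2 in cushion mesenchyme-like than in endocardium-like cells, 2.80-fold over all cells (2.65 to 2.95) and 2.15- to 3.95-fold by library. Second heart field-like mesoderm, with 112 CPM, lay near the myocardium. Neural crest mesenchyme-like cells had 16.2 CPM and erythroid-like cells 2.62 CPM.

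Tgfb3, a ligand better known from palate and lung, reached 10 CPM in none of the 16 ranked classes and was not tested in the comparisons below. Its highest levels were 9.26 CPM in neuron-like cells (6.62, 10.2 and 11.4 over 5 libraries) and 7.77 CPM in smooth muscle-like cells, and these overlapped. Outflow-like myocardium had 10.1 CPM (5.49, 8.47 and 15.3), against 2.14 CPM in ventricular-like cells. Cushion mesenchyme-like cells had 4.35 CPM from 77 UMIs, and endocardium-like cells 0.329 CPM from 12 UMIs. That ratio, 13.2-fold (7.14 to 26.6), rests on few molecules but had the same direction in 6 of 6 libraries.

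**Figure D1:**
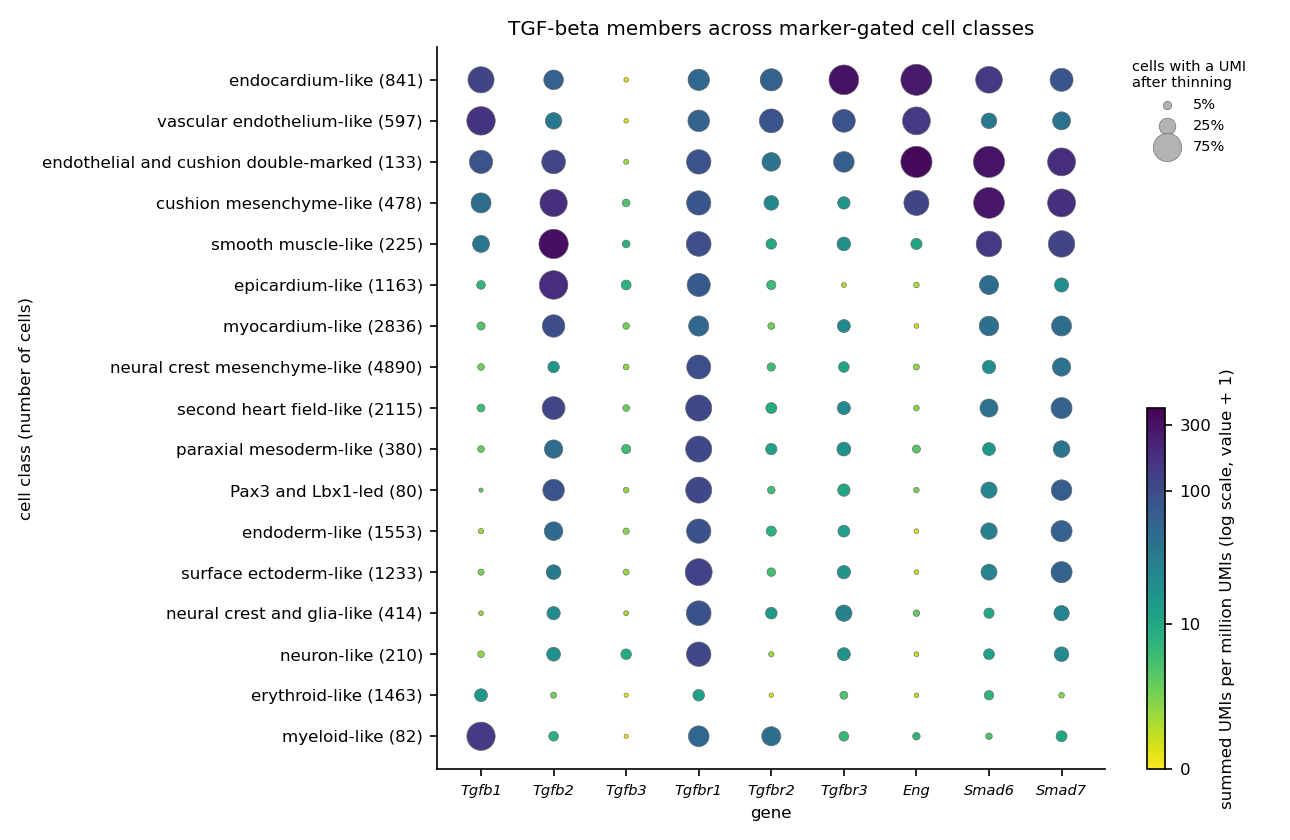
Levels of the 9 genes in 17 cell classes with at least 50 cells. Colour is the level in UMIs per 1000000 (log scale), and dot area follows the share of cells with a UMI after thinning each cell to 10000 UMIs; Tgfbr2, Tgfbr3 and Eng are high in the endothelial rows, Tgfb1 there and in the myeloid-like row, Smad6 and Smad7 in the cushion and smooth muscle rows, Tgfb2 there and in the epicardium-like row, and Tgfbr1 in nearly all rows.

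Of the signalling receptors, Tgfbr1 was present in nearly every class and Tgfbr2 was restricted. Tgfbr1 (chromosome 4, 47353222 to 47414931, GRCm38), the kinase that phosphorylates SMAD2 and SMAD3, ranged from 12.7 CPM in erythroid-like cells to 121 CPM in surface ectoderm-like cells. Endocardium-like cells had 55.9 CPM (51.9, 54.2 and 62.6), myocardium-like cells 52.6 CPM (49.8, 52.9 and 54.1) and cushion mesenchyme-like cells 82.1 CPM (69.4, 82.3 and 92.5). The endocardial and myocardial values overlapped between libraries, and the cushion values lay above both. That gap, 1.47-fold over endocardium-like cells (1.37 to 1.57), stayed under 2-fold.

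Tgfbr2 (chromosome 9, 116084293 to 116175360, GRCm38), the ligand-binding kinase, was highest in vascular endothelium-like cells at 85.5 CPM (78.6, 87.2 and 98.0). Endocardium-like cells had 59.7 CPM (54.8, 58.2 and 70.6), myeloid-like cells 45.9 CPM and cushion mesenchyme-like cells 23.5 CPM (18.6, 24.5 and 28.3). The neural crest and glia-like class came next at 14.9 CPM, and myocardium-like cells had 2.76 CPM (2.09, 2.95 and 3.79). Cushion mesenchyme-like cells thus had 2.54-fold less Tgfbr2 than endocardium-like cells (2.28 to 2.82, less in 6 of 6 libraries) and 8.53-fold more than myocardium-like cells (7.41 to 9.83, more in 6 of 6).

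Cells with a UMI of both receptor genes followed Tgfbr2. After each cell was thinned to 10000 UMIs, both were read in 19.8% of endocardium-like cells (95% exact binomial interval 17.1 to 22.7), 9.92% of cushion mesenchyme-like cells (7.38 to 13) and 0.958% of myocardium-like cells (0.632 to 1.39). Unthinned, the shares were 68.5%, 45.8% and 9.84%, at median depths of 39790, 34860 and 45462 UMIs per cell. In erythroid-like cells the thinned count was 0 of 1461 cells, which allows a share of up to 0.205% at that thinned depth, and the unthinned share was 1.23% at a median of 65268 UMIs per cell. These are shares of cells with UMIs, not of expressing cells: a cell without a UMI may hold the transcript, and free RNA can add UMIs.

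The co-receptors were both high in endocardium-like cells and differed in the cushion class. Tgfbr3 (chromosome 5, 107106570 to 107289629, GRCm38) stood at 307 CPM in endocardium-like cells (259, 299 and 338), at 87.9 CPM in vascular endothelium-like cells (74.8, 91.4 and 101) and at 16.7 CPM in cushion mesenchyme-like cells (11.1, 15.5 and 26.4). No library of 1 class reached the range of another. The endocardial level was 18.3-fold above the cushion level (16.3 to 20.7), and the factor by library ran from 9.78 to 28.6. Epicardium-like cells had the lowest level of the 16 classes, 0.838 CPM from 49 UMIs. Myocardium-like cells had 23.6 CPM (17.9, 24.0 and 30.2), which overlapped the cushion range. With clusters in place of gates the difference between cushion and endocardium shrank to a log2 ratio of -2.48, from -4.20, and Tgfbr3 turned from lower to higher in the cushion class against the myocardium, from -0.50 to 1.45.

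Eng (chromosome 2, 32646595 to 32682669, GRCm38) was highest in the double-marked cells, at 339 CPM (324, 330 and 370 in the 3 libraries with at least 20 such cells). Endocardium-like cells had 262 CPM (233, 262 and 286), vascular endothelium-like cells 138 CPM (127, 141 and 144) and cushion mesenchyme-like cells 115 CPM (98.1, 116 and 131). Endocardium-like values lay above those of the other 2 classes in every library, whereas the vascular and cushion ranges overlapped. Cushion mesenchyme-like cells had 2.29-fold less Eng than endocardium-like cells (2.18 to 2.4, less in 6 of 6 libraries). With clusters in place of gates this difference vanished and turned: the cluster named cushion mesenchyme-like, of whose 823 cells 45.8% passed the cushion gate, had a log2 ratio of 0.045 to the endocardium-like cluster, against -1.19 with gates.

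Few myocardium-like cells had an Eng UMI. The myocardium-like and erythroid-like gates both allowed at most 2 endothelial markers on, so cells with more of them were left out beforehand. In erythroid-like cells the 6 erythroid markers summed to 383920 CPM, so thinning leaves fewer UMIs for other genes there. Myocardium-like cells had 0.532 CPM from 74 UMIs, and after thinning 0.426% of them had an Eng UMI (0.220 to 0.742), close to the 0.342% of erythroid-like cells (0.111 to 0.797, median depth 65268 UMIs). In cushion mesenchyme-like cells the thinned share was 58.6% (54.1 to 63.1) and in endocardium-like cells 90.9% (88.7 to 92.8). The unthinned shares were 1.87%, 85.1% and 99.9% in myocardium-like, cushion mesenchyme-like and endocardium-like cells.

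The inhibitory Smads peaked in the cushion classes. Smad6 (chromosome 9, 63953076 to 64022059, GRCm38) stood at 276 CPM in cushion mesenchyme-like cells (226, 279 and 291) and at 299 CPM in double-marked cells. Smooth muscle-like cells had 146 CPM (113, 132 and 210) and endocardium-like cells 142 CPM (120, 141 and 176), which overlapped. Myocardium-like cells had 43.6 CPM (38.9, 44.2 and 48.6) and vascular endothelium-like cells 33.7 CPM (21.3, 32.3 and 45.6). The cushion level was 1.94-fold above the endocardial level (1.86 to 2.02, higher in 6 of 6 libraries), just under the 2-fold threshold.

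Smad7 followed a similar order. Cushion mesenchyme-like cells had 172 CPM (160, 168 and 189), smooth muscle-like cells 118 CPM (89.5, 109 and 158) and endocardium-like cells 80.9 CPM (72.0, 79.4 and 103), the latter 2 overlapping. Myocardium-like cells had 48.2 CPM (44.1, 48.6 and 52.5) and vascular endothelium-like cells 41.1 CPM (35.4, 38.8 and 53.5). Cushion mesenchyme-like cells exceeded endocardium-like cells 2.13-fold (2.02 to 2.24, in 6 of 6 libraries), just above the threshold. Unlike Smad6, Smad7 also reached 60.7 CPM in second heart field-like cells, 62.6 CPM in endoderm-like cells and 61.2 CPM in surface ectoderm-like cells, above its myocardial level although the endoderm and myocardium ranges overlapped, and it was lowest in erythroid-like cells at 1.93 CPM.

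**Figure D2:**
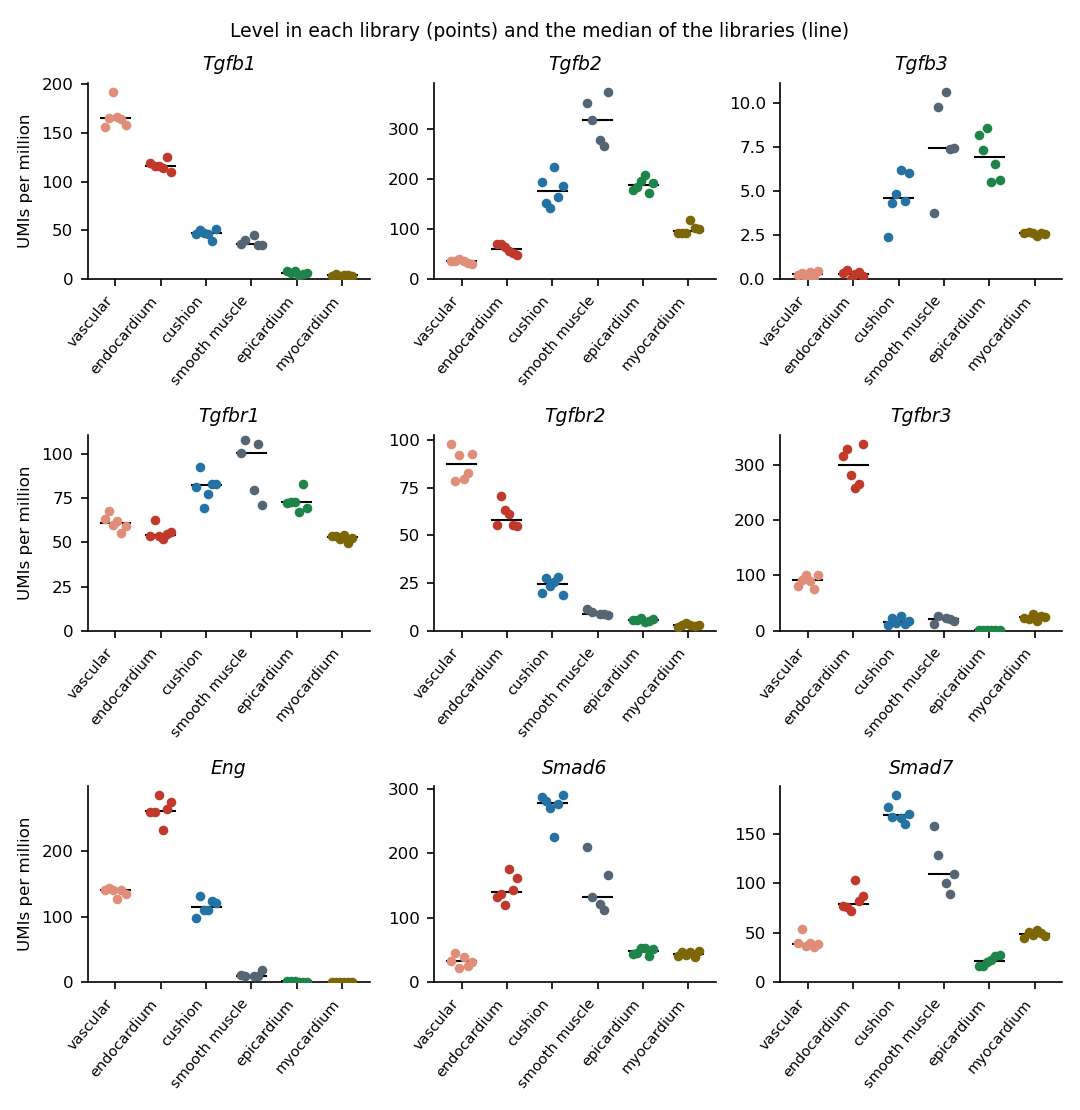
Level of each gene (UMIs per 1000000, linear axis from 0) in 6 cell classes, with 1 point per library and a line at the median of the libraries. Smooth muscle-like cells have 5 points because library 3 held fewer than 20 of them. For Tgfbr3 the endocardium-like points (259 to 338) lie above all others, and for Smad6 the cushion mesenchyme-like points (226 to 291) do.

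Comparisons between classes used genes with at least 10 CPM in the higher class and took a difference of 2-fold or more as called, over all genes. A gene far below 10 CPM in 1 class could then be called only toward the other class, among members and all genes alike. Cushion mesenchyme-like against endocardium-like cells, 8 of the 9 genes could be compared. Higher by this rule were 2 of them, Tgfb2 and Smad7, where 7.31% of all 9160 genes were. Lower were 4, Tgfb1, Tgfbr2, Tgfbr3 and Eng, where 5.47% of all genes were. The gates of these 2 classes also differ in the endothelial markers allowed, and the part of that in these 4 was not tested. Double-marked cells had 86.7 CPM of Tgfb1, 39.6 CPM of Tgfbr2, 67.5 CPM of Tgfbr3 and 339 CPM of Eng. The median log2 ratio was -0.32 over the 8 members and 0.06 over all genes. With clusters in place of gates, the calls of Tgfb1 (log2 ratio -0.42 in place of -1.31), Tgfbr2 (-0.59 in place of -1.34) and Eng ended, that of Tgfbr3 was kept, and Smad6 became a call at 2.6-fold higher. With 1 marker fewer required (409 cushion mesenchyme-like cells), Smad7 was 1.81-fold higher and no longer called.

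Against myocardium-like cells, both classes had more Tgfb1, Tgfbr2, Eng and Smad6. Of these, Tgfb1 (4.13 CPM), Tgfbr2 (2.76 CPM) and Eng (0.532 CPM) met the 10 CPM minimum only through the class set against the myocardium. They could then only be called higher, so the counts of members below rest partly on the filter. Higher in cushion mesenchyme-like cells were 5 of 8 (Tgfb1, Tgfbr2, Eng, Smad6 and Smad7), with 16.3% of all genes higher, and lower were 0, with 9.92% of all genes lower. Tgfb1 was 11.4-fold higher (10.3 to 12.7) and Smad6 6.33-fold (6.09 to 6.57), each in 6 of 6 libraries. With clusters Tgfb1 was 17.4-fold higher. For Eng the ratio, 216 (171 to 276), rests on 74 UMIs in myocardium-like cells, and it ran from 140 to 355 by library and to 326 without cells of high doublet score. Tgfb2 reached 1.79-fold (1.72 to 1.86), and 1.07-fold with clusters. Higher in endocardium-like than in myocardium-like cells were 5 of 8 (Tgfb1, Tgfbr2, Tgfbr3, Eng and Smad6), with 15.5% of all genes higher, and lower were 0, with 11.5% of all genes lower. Tgfb1 was 28.3-fold higher there (25.9 to 30.9), Tgfbr2 21.6-fold (19.4 to 24.2) and Tgfbr3 13-fold (12.5 to 13.5). Tgfb2 ran the other way, 1.57-fold lower in endocardium-like cells (1.5 to 1.64, lower in 6 of 6 libraries). All genes together were shifted upward in these comparisons, with median log2 ratios of 0.33 for the cushion and 0.25 for the endocardial comparison.

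Endocardium differed from vascular endothelium in 2 of 8 members, both higher in endocardium-like cells, where 5.06% of all genes were. Tgfbr3 was 3.49-fold higher (3.34 to 3.64) and Smad6 4.22-fold higher (3.94 to 4.53), each in 6 of 6 libraries. With clusters Smad6 was 2.4-fold higher. Both genes varied with depth in vascular endothelium-like cells. The 63 cells under 20000 UMIs had 168.5 CPM of Tgfbr3 and 81.5 CPM of Smad6, and deeper ones 85.3 and 32.1 CPM. The same split of endocardium-like cells gave 304 and 307 CPM of Tgfbr3, and 170 and 142 CPM of Smad6. The part of depth in these 2 differences was not tested. Lower in endocardium-like cells were 0 of 8, with 3.60% of all genes lower. Just inside 2-fold lay Smad7 at 1.97-fold and Eng at 1.90-fold, and Tgfb2 was 1.8-fold higher, all in 6 of 6 libraries. Smad7 was 1.24-fold higher with clusters and, past the threshold, 2.20-fold higher after thinning. Tgfb1 and Tgfbr2 were 1.41-fold and 1.43-fold lower in endocardium-like cells.

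Cells between the 2 states gave a finer view. Pooled here were cells with cardiac markers that passed the endocardial or the cushion marker count, ordered by how many of the 8 endothelial markers were on. Cells with 0 such markers on numbered 214 and those with all 8 numbered 85. From 8 markers down to 0, Tgfbr3 fell from 354 to 13.6 CPM, with 94.2 CPM at 3 markers and 25.9 CPM at 2. Tgfb1 declined from 125 to 35.4 CPM and Tgfbr2 from 62.0 to 19.0 CPM, with its highest value, 71.6 CPM, at 7. Tgfb2 climbed from 42.8 to 238 CPM. Eng behaved otherwise: it lay between 276 and 322 CPM at every count from 8 to 3 and stood at 187, 106 and 63.3 CPM at 2, 1 and 0 markers.

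The inhibitory Smads were higher in the middle of that ordering than at its endothelial end. Smad6 was 183 CPM at 8 markers, 184 CPM at 7, 226 CPM at 5 and 283 CPM at 4, stood at 293 CPM at 2 and 291 CPM at 1, and was 231 CPM at 0. Smad7 was 101 CPM at 8, 133 CPM at 5 and 164 CPM at 4, with 180 CPM as its highest value at 1 and 160 CPM at 0. Library by library, Tgfbr3 had 209 to 374 CPM in cells with 6 to 8 markers on, 131 to 201 CPM with 3 to 5 and 14.3 to 37.6 CPM with 0 to 2. Eng had 252 to 323 CPM, 241 to 367 CPM and 94.0 to 125 CPM in the same groups, so its upper 2 groups overlapped. Snai1, a repressor of epithelial junction genes, passed from 6.81 CPM at 8 markers to 33.2 CPM at 3, 65.4 CPM at 1 and 48.5 CPM at 0, and Vcan, which encodes the matrix proteoglycan versican, from 34.5 to 737, 1149 and 1100 CPM at the same counts. The ordering uses counts of detected markers and sets no time. What part mixed droplets take in its middle was not tested, and 6.77% of the double-marked cells had high doublet scores, against 6.90% of endocardium-like and 13% of cushion mesenchyme-like cells.

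**Figure D3:**
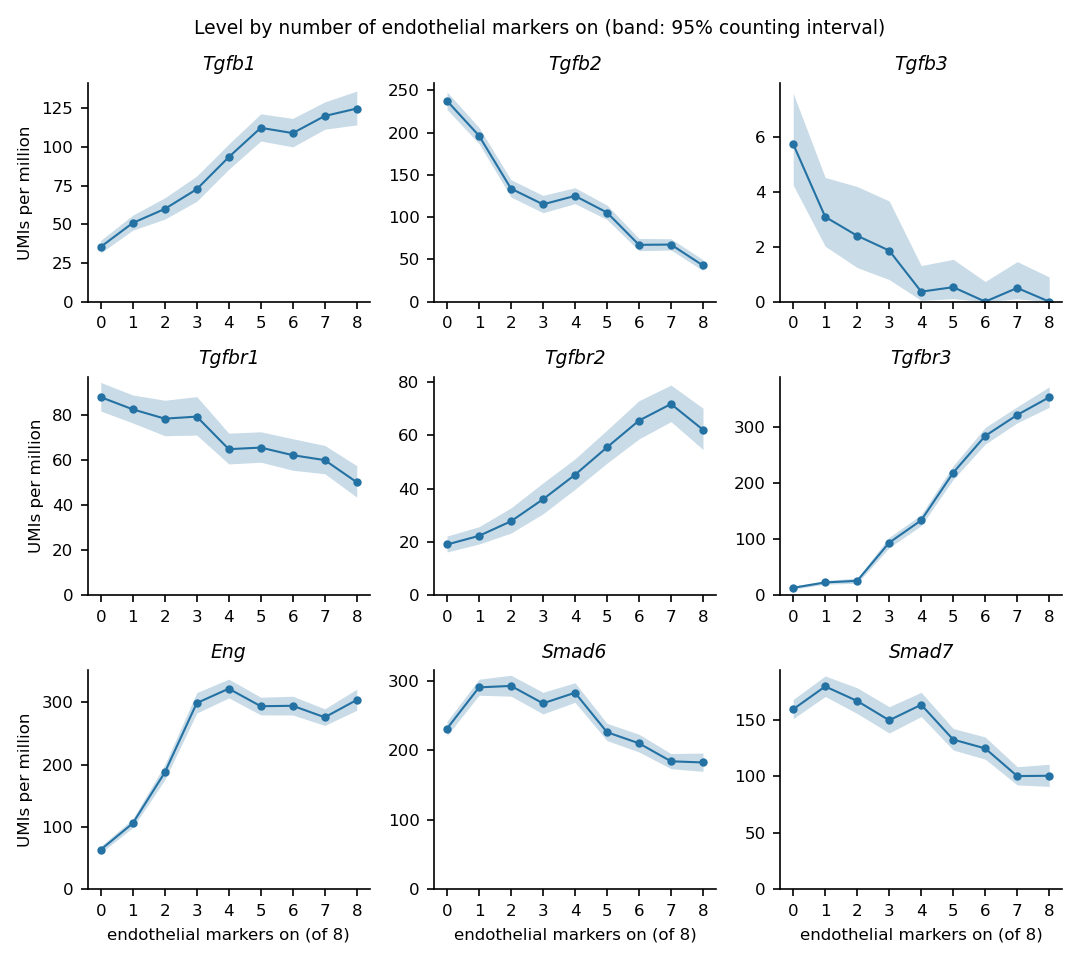
Level of each gene (UMIs per 1000000, linear axis from 0) against the number of endothelial markers on, from 0 to 8, in cells with cardiac markers. Points join sums over cells and the band is the 95% counting interval. Tgfbr3 falls from 94.2 at 3 markers to 25.9 at 2, Eng stays between 276 and 322 down to 3 markers, and Tgfb2 climbs toward 0 markers.

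Within the myocardium, Tgfb2, Smad6 and Smad7 were higher in the atrioventricular canal than in the ventricle, and Tgfbr3 was lower. Tgfbr1 had 69.1 CPM in canal-like and 44.7 CPM in ventricular-like cells, within 2-fold. The comparison of canal and ventricle was added after levels had been seen. Cushions form in the atrioventricular canal and in the outflow tract, and canal myocardium was gated on Tbx2, Tbx3, Bmp2, Msx2 and Rspo3. Tgfb2 had 267 CPM in the 193 atrioventricular canal-like cells (199, 266 and 325), 148 CPM in outflow-like cells (128, 147 and 154), 70.3 CPM in atrial-like cells (41.6, 75.8 and 112) and 61.1 CPM in ventricular-like cells (45.1, 62.1 and 81.3). The canal values lay above all others, and the atrial and ventricular ranges overlapped. Tgfbr3 had 44.1 CPM in ventricular-like cells (36.7, 43.9 and 52.0), 8.17 CPM in atrial-like cells, 2.4 CPM in canal-like cells (17 UMIs) and 1.91 CPM in outflow-like cells (20 UMIs).

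Both inhibitory Smads had the same order of regions as Tgfb2 over all cells. Smad6 had 121 CPM in canal-like cells (91.0, 125 and 149), 106 CPM in outflow-like, 30.4 CPM in atrial-like and 21.7 CPM in ventricular-like cells (18.8, 21.9 and 22.4). Smad7 had 120 CPM in canal-like cells (94.4, 126 and 145), 69.7 CPM in outflow-like, 48.8 CPM in atrial-like and 27.9 CPM in ventricular-like cells (23.2, 25.9 and 38.9). Canal against ventricle, 5 of the 9 genes could be compared. Higher in the canal were 3, Tgfb2 4.38-fold (4.14 to 4.64), Smad6 5.58-fold (5.10 to 6.10) and Smad7 4.30-fold (3.94 to 4.68), each in 6 of 6 libraries, where 11.2% of all genes were higher. Tgfbr3 was lower, 18.4-fold (11.4 to 31.6), where 5.24% of all genes were lower. With 1 marker fewer required, which left 34 canal-like and 510 ventricular-like cells because cells passing more than 1 gate have no class, the log2 ratios of Tgfb2, Smad6, Smad7 and Tgfbr3 were 1.23, 1.81, 1.43 and -2.51, in place of 2.13, 2.48, 2.10 and -4.20. The median log2 ratio of all genes was 0.20. Malat1, a nuclear RNA, stood at 11744 CPM in canal-like cells and 4181 CPM in ventricular-like cells, and median depth was 33782 against 57402 UMIs per cell. After thinning all cells to 10000 UMIs, Tgfb2, Smad6 and Smad7 were in 79.2%, 71.9% and 66.1% of canal-like against 35.9%, 20.9% and 22.8% of ventricular-like cells. Thinning evens the number of UMIs, not the kind of cell. The 33 atrial-like cells under 20000 UMIs had 187, 65.6 and 67.5 CPM of these genes, and deeper ones 68.1, 29.7 and 48.4 CPM. With at least 20000 UMIs, canal-like cells had 264, 120 and 120 CPM and ventricular-like cells 61.0, 21.7 and 28.0 CPM. The part of Malat1 and depth in the canal and ventricle differences was not tested.

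**Figure D4:**
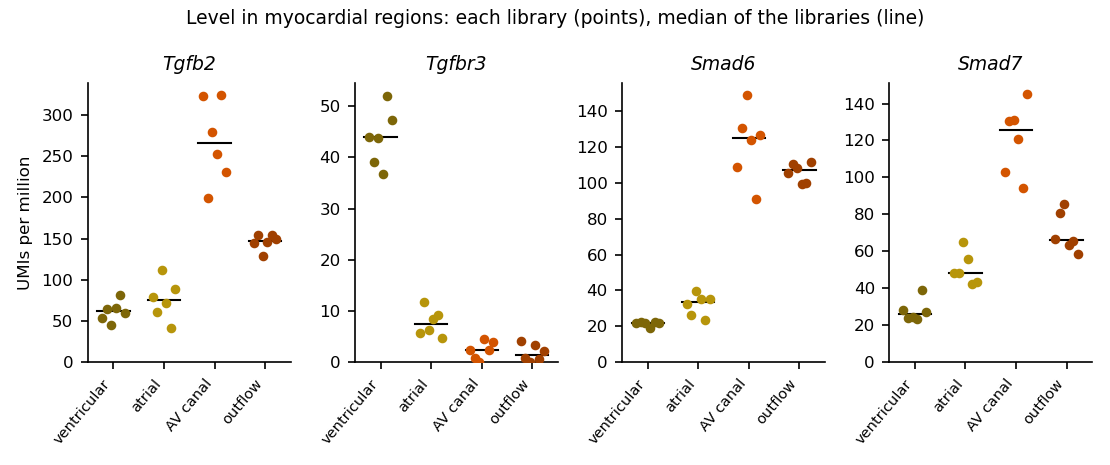
Level (UMIs per 1000000, linear axes from 0) of Tgfb2, Tgfbr3, Smad6 and Smad7 in 4 myocardial regions, with 1 point per library and a line at the median of the libraries. In the atrioventricular (AV) canal-like cells Tgfb2 runs from 199 to 325 while Tgfbr3 stays below 5, and in ventricular-like cells Tgfbr3 runs from 36.7 to 52.0.

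The wider pathway was followed through 47 further genes, of which 40 reached 10 CPM in cushion mesenchyme-like or endocardium-like cells. Higher in cushion mesenchyme-like cells were 16 and lower was 1, against 7.31% and 5.47% of all genes. The median log2 ratio of the 40 was 0.66. Among targets and cushion effectors, 8 of 13 compared were higher and 0 lower. The list names cushion genes and the cushion gate selects mesenchyme markers, so this count describes the class and is no test of signalling. Col1a1, a fibrillar collagen, had 51.9 against 1.10 CPM, Vcan 1245 against 93.7 CPM, Tgfbi, a secreted TGF-beta-induced matrix protein, 188 against 16.2 CPM, and Snai2, a repressor used in mesenchymal transition, 30.3 against 3.35 CPM. Each of these was higher in 6 of 6 libraries. Col1a1 and Snai2 met the 10 CPM minimum only through the cushion class and could then only be called higher. The same holds for other genes below 10 CPM in 1 class in the pathway counts that follow, which could be called only toward the other class.

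Genes for storing and releasing latent ligand also differed. Over all genes 7.31% were higher, so a count of 1 of 6 is a single gene and no result for its role. Of 8 compared, 4 were higher in cushion mesenchyme-like cells: Itgb8, an integrin chain that releases active TGF-beta, at 17.3 against 0.878 CPM, Thbs1, another activator, at 74.9 against 18.4 CPM, the microfibril gene Fbn2 at 588 against 176 CPM, and the latency protein gene Ltbp1 at 372 against 128 CPM. Fbn1, the other fibrillin gene shown, was the only gene of the 40 at least 2-fold lower in the cushion class, at 115 against 238 CPM. Among other receptors of the family, 1 of 6 was higher, the decoy receptor Bambi, with 230 against 46.3 CPM (4.96-fold). Of the Smad transducers 1 of 6 was higher, Smad9, a BMP-branch Smad, at 14.4 against 1.10 CPM, while Smad2, Smad3 and Smad4, which carry the TGF-beta signal, stayed within 2-fold. Of the other inhibitors and adaptors 2 of 7 were higher, the feedback inhibitor Pmepa1 at 79.9 against 26.4 CPM and the corepressor Tgif1 at 54.2 against 22.6 CPM.

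**Figure D5:**
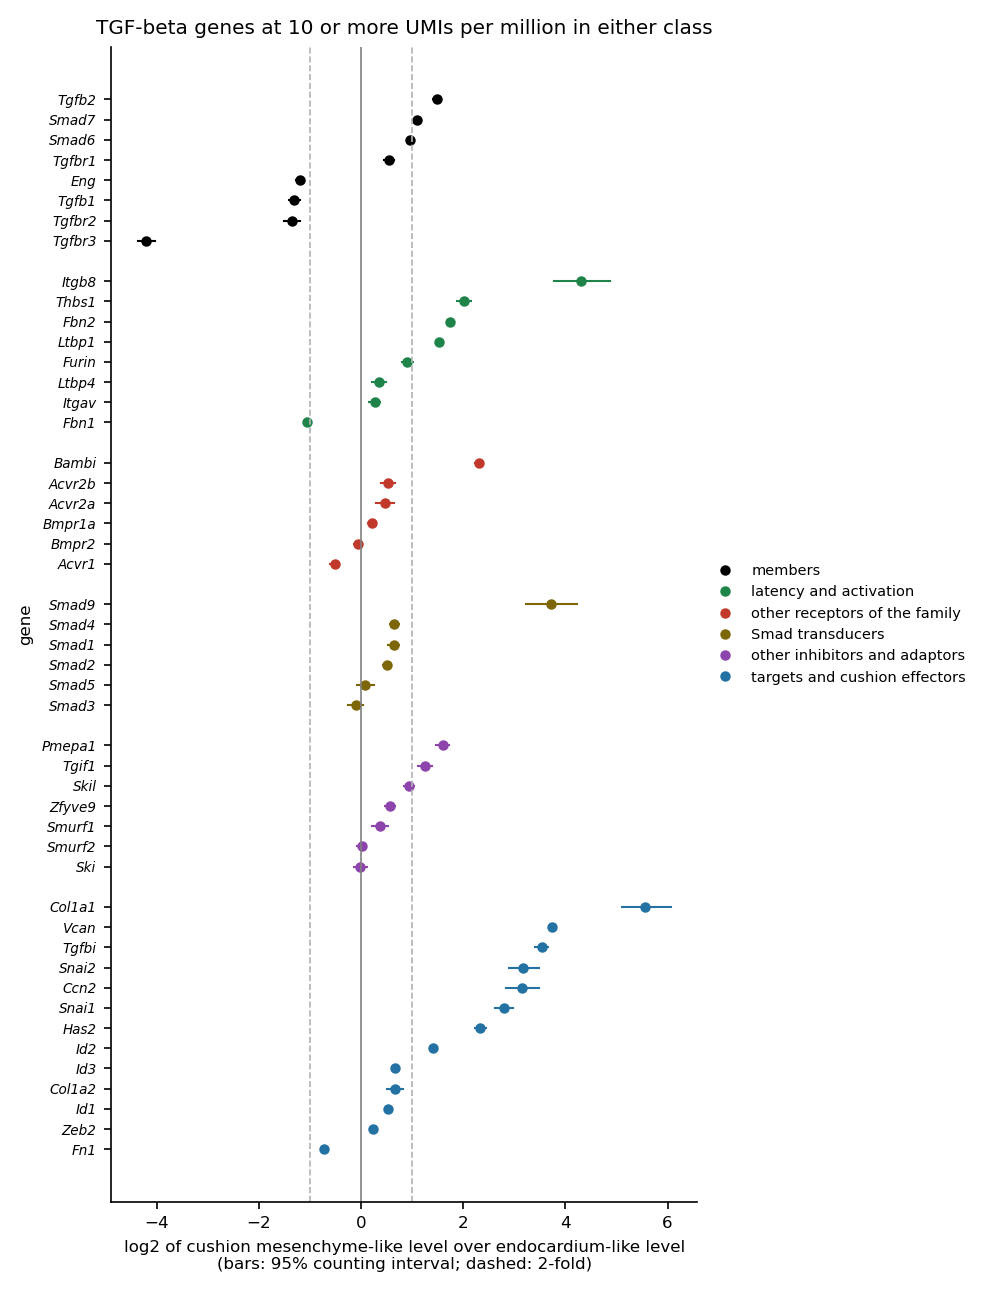
Log2 ratio of the cushion mesenchyme-like to the endocardium-like level for the 8 members and 40 further pathway genes with at least 10 UMIs per 1000000 in either class, grouped by role. Bars are 95% counting intervals and dashed lines mark 2-fold; Tgfbr3 lies lowest at -4.20, and 8 targets and effectors lie to the right of the upper dashed line.

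Against myocardium-like cells, 28 of 40 pathway genes were higher in cushion mesenchyme-like cells and 0 lower, beside 16.3% and 9.92% of all genes. Snai1 had 60.9 against 1.98 CPM, the fibronectin gene Fn1 655 against 35.9 CPM, and Has2, which makes the hyaluronan of the cardiac jelly, 143 against 8.06 CPM. The latency gene Ltbp4 had 41.5 against 0.898 CPM. For endocardium-like against myocardium-like cells, 17 of 36 were higher and 4 lower, beside 15.5% and 11.5% of all genes, so the lower count was near the share over all genes. The 4 hold Bambi, at 46.3 against 205 CPM, and Ccn2, a matricellular target, at 2.75 against 27.4 CPM.

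Endocardium-like and vascular endothelium-like cells differed in 12 pathway genes higher and 6 lower, of 39 compared, beside 5.06% and 3.60% of all genes. Thbs1 had 18.4 against 0.869 CPM, Ltbp1 128 against 19.4 CPM, Fn1 1087 against 171 CPM and Has2 28.3 against 4.14 CPM. The type I BMP receptor gene Bmpr1a had 106 against 16.3 CPM. Acvrl1, the endothelial type I receptor that pairs with endoglin, was lower in endocardium-like cells, at 9.58 against 54.5 CPM, and so was Bambi, at 46.3 against 125 CPM. Canal-like against ventricular-like myocardium, 12 of 31 pathway genes were higher and 0 lower, beside 11.2% and 5.24% of all genes. The 12 hold Has2 at 28.3 against 4.04 CPM, Itgb8 at 32.9 against 6.27 CPM, the BMP target Id3 at 309 against 62.6 CPM, and Bambi at 443 against 168 CPM.

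Across the 16 ranked classes 5 pairs of members were most alike. Pearson's r of log2(CPM + 1) was 0.82 between Eng and Tgfbr2, 0.82 between Eng and Tgfb1, 0.82 between Tgfb2 and Smad6, 0.80 between Tgfb2 and Smad7 and 0.79 between Smad6 and Smad7. It was 0.02 between Tgfb1 and Tgfb2. These values describe 16 classes that share libraries and depth. Of 11786 other genes at 10 CPM or more in some class, gate markers left out, the closest to Eng were Icam2 (0.97), Cd93 (0.96) and Gngt2 (0.95), and to Tgfb1 Gm33370 (0.95), Gngt2 (0.91) and Exoc3l2 (0.91). Those closest to Tgfb2 were P3h4 (0.94), Sec23a (0.92) and P4ha2 (0.92), and to Tgfb3 Dact1 (0.90), Cacna2d1 (0.89) and Rgs7 (0.89). Tgfbr1 was followed most closely by Evl (0.99), Gpbp1 (0.98) and Brd1 (0.98), Tgfbr2 by Irf2 (0.95), Wasf2 (0.93) and Utp11 (0.93), and Tgfbr3 by Tstd3 (0.89), Snrk (0.86) and Etv2 (0.85). Tgfbr1 had 12.7 CPM in erythroid-like cells and 52.6 to 121 CPM in all other ranked classes. The part of the erythroid-like class in its r values was not tested. Smad6 was closest to Kdelr3 (0.92), Igf2r (0.91) and Furin (0.91), and Smad7 to Kansl3 (0.92), Smurf1 (0.92) and Fstl1 (0.92).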

How the data were processed

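The authors deposited 1 matrix of raw UMI counts (whole numbers per gene and barcode). The submitters' processing notes name CASAVA 1.8, Cell Ranger 5.0.0, Seurat 4 and mm10; the sources used here do not state their roles or settings. Descriptions in the labels name a chromatin assay, whereas titles, library source and kit name RNA, and the values were read as RNA counts.

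Here, barcodes were filtered, gated by marker lists and summed per class and library. A value per library was given where it held at least 20 cells of the class. Intervals are 95% exact Poisson or binomial (Clopper-Pearson) intervals and ratio intervals built on them, and they cover counting error only. The limit for a count of 0 is 3 counts. Cells were thinned to 10000 UMIs to compare shares. Doublets stayed in the main values, and cells with high doublet scores (2564 of 35962, 7.13%) were left out as an alternative. In place of gates, 41 Leiden clusters (resolution 1.5, scanpy 1.11.5) were an alternative. Gene positions are from GENCODE M21. Comparison code was tested on simulated data.

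Named were the 9 members, at most 4 called pathway genes per role by size, and the 3 genes most like each member. Members, lists and comparisons were chosen with earlier results of these data known, and gate minimums were set after marker counts had been seen.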

Additional observations from a re-analysis of the deposited data

How the results depend on the processing

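Counts of called members were recomputed under other cell filters, 1 marker more or fewer per gate, clusters, each library left out, the median over libraries, shared barcodes left out, thinning, doublet scores, no CPM minimum, a 1.5-fold threshold and, added after seeing the data, ratios centred on the median of all genes. Of 170 counts, 164 stayed within 1.5 times the main count and 6 moved. Of the 170 matching counts over all genes, 147 stayed and 23 moved. Whether members moved with all genes in a given setting was not tested. With 1 marker fewer required, 1 member was higher in cushion mesenchyme-like than in endocardium-like cells, in place of 2. With clusters, 1 was lower in that comparison, in place of 4, and the log2 ratio of Eng turned from -1.19 to 0.045. Without the CPM minimum, 1 member was lower in endocardium-like than in myocardium-like cells, in place of 0. In the same setting 5 were higher in atrioventricular canal-like than in ventricular-like cells, in place of 3. The counts over all genes rose to 7011 and 4618, of 32285 genes in the matrix. At 1.5-fold, 1 was lower in endocardium-like than in myocardium-like cells and 5 were higher in endocardium-like than in vascular endothelium-like cells, where 16.7% and 9.65% of all genes were. Leaving out any 1 library moved no count of members beyond 1.5 times. Of 674 log2 ratios of single members under alternatives, 520 stayed within the main counting interval. The sign changed in 17 values of 8 ratios: 1 called ratio (Eng, above), 2 ratios compared but not called (Tgfbr3 in cushion mesenchyme-like against myocardium-like cells, from -0.50 to 1.45 with clusters, and Tgfbr1 in endocardium-like against myocardium-like cells, from 0.09 to -0.17 when centred) and 5 ratios of genes under 10 CPM. No paired analysis was possible because barcodes are not tied to samples in the files used here, so STZ and Veh could not be paired by number; cell classes were set against each other within each library, without a test. For the same reason the planned fits of STZ against Veh (edgeR with and without a replicate block, DESeq2, each replicate left out) were not run. Few UMIs stand behind some values, such as 12 for Tgfb3 in endocardium-like cells and 4 for Eng in canal-like cells.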

Other observations

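Cells that no gate took had 78.3 CPM of Tgfb2 (63.3 to 97.5 across libraries), and clusters given no class name ran from 3.73 to 271 CPM, gated cells within them included. Of 41 clusters, cluster 31, led by Lrrc4c, Kcnip1 and Tbx18 (627 cells, 73.2% of them without a gate), had 271 CPM.

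Tgfbr1 was low in a set of clusters with few UMIs and few mitochondrial UMIs. In 7 clusters with a median under 15000 UMIs (3137 cells) it lay between 9.73 and 36.9 CPM, and in the other 33 clusters, erythroid-like cells left out, between 42.4 and 133 CPM. The ranges of Tgfbr2 (0 to 2.89 and 2.0 to 80.4 CPM), Tgfbr3 (0 to 2.6 and 1.58 to 348 CPM) and Smad7 (12.4 to 45.6 and 6.95 to 165 CPM) in the same 7 and 33 clusters overlapped. Mitochondrial UMIs were 0.242 to 0.681% in the shallow clusters and 2.11 to 3.90% in those 33. Cluster 14, with the crest genes Hmx1, Dlx6 and Dlx5 leading, had 11 CPM of Tgfbr1 and 558 CPM of Malat1. Cluster 0, where Hmx1 and Barx1 also lead, had 111 and 2886 CPM. The low level was not particular to Tgfbr1: Tgfbr2 had 0.692 CPM in cluster 14 against 5.49 CPM in cluster 0, and Tgfbr3 0.646 against 12.2 CPM. Smad7 had 12.4 against 26.1 CPM, whereas Tgfb1 (1.38 against 1.03 CPM) and Eng (1.71 against 1.22 CPM) were not lower in cluster 14. Neural crest mesenchyme-like cells under 20000 UMIs had 30.5 CPM of Tgfbr1 and deeper ones 96.4 CPM, so the crest level in the ranking mixes both kinds of cell. Their Tgfbr3 was 3.86 and 11.5 CPM and their Smad7 20.04 and 42.6 CPM. The epicardium-like class was also mixed, with 40.4 and 73.8 CPM of Tgfbr1, 114 and 187 CPM of Tgfb2 and 26.6 and 47.8 CPM of Smad6 at 1.37 and 2.28% mitochondrial UMIs. Vascular endothelium-like cells had 44.1 CPM (31.5 to 60.0, from 40 UMIs) and 61.6 CPM (58.7 to 64.6) of Tgfbr1, with overlapping intervals. Their mitochondrial share ran the other way, at 3.69 and 2.66%, and so did their Tgfbr3 and Smad6, given above. In endocardium-like cells the same split gave 62.9 and 55.7 CPM of Tgfbr1, in cushion mesenchyme-like cells 91.9 and 81.9 CPM, and in the surface ectoderm-like class 141 and 117 CPM.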
